A study of Mus musculus with 28 samples.

Results

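Hypoxia-induced target genes of HIF-1 were followed in AB1-HA tumors of mice treated with chemotherapy, immune checkpoint blockade or both. The set held 10 of the 55341 genes in the count tables: Egln3, Car9, Pdk1, Ak4, Bnip3, Ero1l, Vegfa, Adm, Ankrd37 and Ndrg1. These genes were selected by name, with the measured fall of several of them in 5-FU+ICB against ICB tumors already known, and their values in that comparison are therefore given as a description without a test. All 10 passed the filter on low counts in each table, and the lowest estimated count of any of them in any tumor was 24.

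RNA was sequenced from 28 whole tumors, which had been grown subcutaneously from AB1-HA, a mouse mesothelioma cell line, in female BALB/c.AusBP mice of 8 to 10 weeks. The PBS group, which served as control, had 4 tumors and the Cisplatin group 4, while the ICB, 5-FU, 5-FU+ICB and Cisplatin+ICB groups had 5 each. ICB was anti-CTLA-4 (100 µg, 1 dose) with anti-PD-L1 (100 µg, 3 doses), 5-FU (5-fluorouracil, a pyrimidine analog) was dosed at 75 mg/kg and cisplatin (a platinum compound that crosslinks DNA) at 6 mg/kg. Treatment began at a tumor size of 20 to 25 mm2, and tumors, each from a separate mouse, were taken on day 7, so a single time point was measured, in 1 transplanted line. Levels are given in CPM, the counts of a gene divided by the scaled library size so that tumors of different depth can be compared, with scaling over all 28 tumors, fold changes come from the fit of the table that holds both groups unless stated otherwise, and overlap between groups was judged on the printed levels. Total counts per tumor ranged from 23541733 to 33950805 per library, and 3 counts corresponded to between 0.0884 and 0.127 CPM, a limit that covers counting error only.

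HIF-1 is a dimer of an oxygen-labile alpha subunit, encoded by Hif1a, and the stable Arnt. In oxygenated cells, prolyl hydroxylases mark the alpha subunit for the VHL ubiquitin ligase and it is degraded. When oxygen is low it persists, enters the nucleus and binds short motifs in the DNA near genes for glycolysis, pH control, mitochondrial turnover and blood vessel growth. Because the switch acts on the protein, the mRNA of the target genes is commonly read as the sign of its activity, and several of the genes described here are used as hypoxia markers in solid tumors.

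The labelled cell line was checked against mesothelial markers. Msln, which encodes mesothelin, had a median of 155 CPM over the 28 tumors (range 0.39 to 448), whereas Upk3b was at or under 3 counts in all 28, Krt18 in 17 and Lrrn4 in 15, and the median of Wt1 was 0.566 CPM. The CPM of these single markers are per total counts, without the scaling used for the other levels. Most of these defining markers were therefore near 0, and the RNA of a whole tumor also holds that of host cells. In such bulk samples, fewer cells that express a gene and less RNA per cell cannot be told apart. The tumor labelled Cisplatin+ICB 1 stood apart from the others, with a correlation of 0.852 with the rest of its group over all genes, against 0.916 to 0.989 for the other 27. Several results that rest on it are given with and without it. Fold changes without it are not given for Cisplatin+ICB against ICB, for the tests of interaction and for genes outside the set.

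The promoters are shown first for the 6 genes that were lower in 5-FU than in PBS tumors, because HIF-1 binds such sequences directly. Each is the stretch from 250 bases before to 10 bases after the RefSeq transcription start nearest to the GENCODE M21 start of the gene (RefSeq, GRCm38.p6), read 5′ to 3′ on the strand of the gene. For Ankrd37 the stretch lies inside the gene as GENCODE gives it, which starts at 46005707 on the minus strand. Capitals mark every match on either strand. The first motif searched was ACGTG, which reads as CACGT when it lies on the other strand. The second motif was GCGTG, which likewise reads as CACGC.
Egln3, chr12:54203865-54204124, minus strand: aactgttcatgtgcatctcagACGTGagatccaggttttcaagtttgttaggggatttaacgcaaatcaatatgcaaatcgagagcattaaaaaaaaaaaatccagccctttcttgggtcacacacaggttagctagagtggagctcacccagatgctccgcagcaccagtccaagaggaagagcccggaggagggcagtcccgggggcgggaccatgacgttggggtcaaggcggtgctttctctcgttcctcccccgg
Car9, chr4:43506776-43507035, plus strand: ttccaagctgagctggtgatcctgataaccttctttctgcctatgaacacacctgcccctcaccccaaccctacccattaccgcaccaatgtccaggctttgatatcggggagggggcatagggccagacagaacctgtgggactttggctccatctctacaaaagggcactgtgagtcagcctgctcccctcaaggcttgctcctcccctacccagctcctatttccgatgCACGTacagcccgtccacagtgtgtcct
Pdk1, chr2:71872974-71873233, plus strand: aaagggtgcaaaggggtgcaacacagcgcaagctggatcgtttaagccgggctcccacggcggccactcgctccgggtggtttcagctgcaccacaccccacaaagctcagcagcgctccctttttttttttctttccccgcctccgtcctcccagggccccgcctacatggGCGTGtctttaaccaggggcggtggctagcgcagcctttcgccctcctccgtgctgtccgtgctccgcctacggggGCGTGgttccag
Bnip3, chr7:138909497-138909756, minus strand: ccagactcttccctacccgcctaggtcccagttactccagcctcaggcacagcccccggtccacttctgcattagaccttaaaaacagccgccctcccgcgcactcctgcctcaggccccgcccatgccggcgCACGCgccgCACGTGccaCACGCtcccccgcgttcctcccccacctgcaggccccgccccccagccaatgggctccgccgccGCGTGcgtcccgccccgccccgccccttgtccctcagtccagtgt
Ero1l, which RefSeq names Ero1a, chr14:45318563-45318822, minus strand: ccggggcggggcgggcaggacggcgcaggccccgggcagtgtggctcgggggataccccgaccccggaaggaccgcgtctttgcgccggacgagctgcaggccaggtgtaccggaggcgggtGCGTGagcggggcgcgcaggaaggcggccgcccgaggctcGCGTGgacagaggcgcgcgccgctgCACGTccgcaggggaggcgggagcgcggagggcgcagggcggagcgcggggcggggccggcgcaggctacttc
Ankrd37, chr8:45999841-46000100, minus strand: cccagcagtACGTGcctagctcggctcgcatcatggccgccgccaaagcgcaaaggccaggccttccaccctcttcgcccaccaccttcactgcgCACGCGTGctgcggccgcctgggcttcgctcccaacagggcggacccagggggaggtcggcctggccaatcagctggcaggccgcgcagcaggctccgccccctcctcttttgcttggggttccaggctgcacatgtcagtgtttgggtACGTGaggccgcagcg

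Bnip3 had 5 matches, 2 of which overlap in the palindrome CACGTG. Ankrd37 had 4 matches, of which the CACGC and a GCGTG also overlap, Ero1l 3, Pdk1 2, and Car9 and Egln3 1 each. In the windows of 300 bases (50 bases after the start) nearest to the gene starts, Adm and Ak4 held 2 matches each and that of Vegfa held 0, while its second window, at chr17:46025114-46025413, held 2. Ndrg1 had no entry. Of all 32851 promoter windows of that length, 43.8% held at least 1 match and 20.6% held 2 or more. The letters are short and common, so a match is a description of the sequence and not evidence of binding.

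The first comparison asked what 5-FU alone did to these genes. In 5-FU tumors, 6 hypoxia targets were lower than in PBS tumors: the pH regulator Car9, the metabolic switch Pdk1, the mitophagy receptor Bnip3, Ankrd37, the oxygen sensor Egln3 and the endoplasmic reticulum oxidase Ero1l. The first 4 fell to between 0.145 and 0.246 of their PBS level, and Egln3 and Ero1l to 0.585 and 0.623. No gene of the set was called higher. A gene was called when its Benjamini-Hochberg adjusted p in edgeR's quasi-likelihood test was under 0.05 and its log2 fold change was over 0.5 in size. By that rule 23% of the 17916 genes tested were called in this comparison, in either direction, so 6 of 10 is read against a broad response. That breadth depended on the fit, since 1436 genes were called without PBS tumor 2 and 825 with all 28 tumors, against 4115, while 5 of the 10 hypoxia targets were called in each of these fits. The median log2 fold change was -0.73 over the 10 genes and -0.01 over all genes tested.

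Egln3, the prolyl hydroxylase PHD3 that acts on the alpha subunit and is itself induced by it, lies on chromosome 12 (54178981 to 54203860, minus strand, GRCm38). Its level was 21.0, 36.4, 46.4 and 23.9 CPM in the 4 PBS tumors and 20.3, 22.5, 17.5, 19.6 and 12.4 CPM in the 5 5-FU tumors. The groups overlapped, since PBS tumor 1 was below 5-FU tumor 2. The log2 fold change was -0.77 (SE 0.22, adjusted p = 0.0177), and the call was lost without PBS tumor 2 (-0.67, adjusted p = 0.0736) and without PBS tumor 3 (-0.59, adjusted p = 0.054). It was also lost when all 28 tumors entered the fit (adjusted p = 0.084) and with no filter on low counts (adjusted p = 0.0608).

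Car9, which encodes a carbonic anhydrase that hydrates CO2 at the outer cell surface, lies on chromosome 4 (43506966 to 43513729, plus strand). It was at 12.6, 23.8, 12.3 and 10.1 CPM with PBS and at 2.38, 1.62, 2.58, 1.62 and 2.55 CPM with 5-FU. Every 5-FU tumor was below every PBS tumor, and the log2 fold change was -2.78 (SE 0.35, adjusted p = 0.000361). Pdk1 (chromosome 2, 71873224 to 71903858, plus strand) encodes the kinase that inhibits pyruvate dehydrogenase and so limits the entry of pyruvate into the citric acid cycle. Its PBS tumors had 67.1, 89.8, 56.0 and 56.3 CPM and its 5-FU tumors 18.03, 14.7, 16.4, 14.7 and 19.2 CPM. The groups did not overlap, and Pdk1 had the smallest adjusted p of the set (log2 fold change -2.02, SE 0.20, adjusted p = 0.000139).

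Ak4, a mitochondrial adenylate kinase on chromosome 4 (101419277 to 101466995, plus strand), was not called, although its groups did not overlap. It was at 7.95, 8.64, 8.28 and 7.28 CPM with PBS and at 6.66, 4.49, 6.77, 6.48 and 5.95 CPM with 5-FU (log2 fold change -0.40, SE 0.24, adjusted p = 0.213). The separation between the groups was narrow, 7.28 against 6.77 CPM at its closest.

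Bnip3 (chromosome 7, 138890836 to 138909519, minus strand) encodes a protein of the outer mitochondrial membrane that recruits the autophagy machinery. It was at 124, 199, 72.0 and 73.0 CPM with PBS and at 28.1, 18.01, 28.0, 21.5 and 31.9 CPM with 5-FU. The groups did not overlap (log2 fold change -2.22, SE 0.33, adjusted p = 0.000983). Ero1l (chromosome 14, 45283087 to 45318771, minus strand) encodes an oxidase that drives disulfide bond formation in secreted proteins. It was at 111, 89.7, 119 and 105 CPM with PBS and at 62.8, 80.5, 60.1, 63.1 and 61.2 CPM with 5-FU, a smaller change (log2 fold change -0.68, SE 0.16, adjusted p = 0.00792). Its groups did not overlap either, and 5-FU tumor 2 was the closest to PBS.

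Neither of the secreted factors was called. Vegfa (chromosome 17, 46016993 to 46032369, minus strand), the main growth factor of blood vessels, was at 40.8, 41.6, 49.6 and 42.1 CPM with PBS and at 26.7, 44.1, 13.8, 24.3 and 32.1 CPM with 5-FU. All 5-FU tumors but 1 were below every PBS tumor, and 5-FU tumor 2 was within the PBS range (log2 fold change -0.62, SE 0.33, adjusted p = 0.163). Adm (chromosome 7, 110627661 to 110629820, plus strand), the precursor of the vasodilator peptide adrenomedullin, was at 5.23, 6.00, 6.90 and 5.25 CPM with PBS and at 4.68, 5.68, 8.28, 5.44 and 10.1 CPM with 5-FU. Its groups overlapped and it had the 1 positive log2 fold change of the set (0.24, SE 0.25, adjusted p = 0.48).

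Ankrd37 (chromosome 8, 45996902 to 46005707, minus strand) encodes a small ankyrin repeat protein. It was at 4.10, 8.48, 3.72 and 2.96 CPM with PBS and at 1.34, 0.863, 1.11, 1.01 and 1.00 CPM with 5-FU, with no overlap (log2 fold change -2.19, SE 0.38, adjusted p = 0.00258). Ndrg1 (chromosome 15, 66929318 to 66969640, minus strand), a stress-responsive gene used as a hypoxia marker, was at 100.4, 97.1, 85.3 and 80.4 CPM with PBS. With 5-FU it was at 65.1, 65.0, 112, 57.3 and 81.7 CPM, so that 5-FU tumor 3 was above every PBS tumor (log2 fold change -0.25, SE 0.24, adjusted p = 0.459). Over the 10 genes, 6 had groups that did not overlap, a condition met by 27% of the genes tested in this comparison. The number of genes called was 5 or 6 whichever single tumor was left out, and 6 with DESeq2's Wald test.

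**Figure D1:**
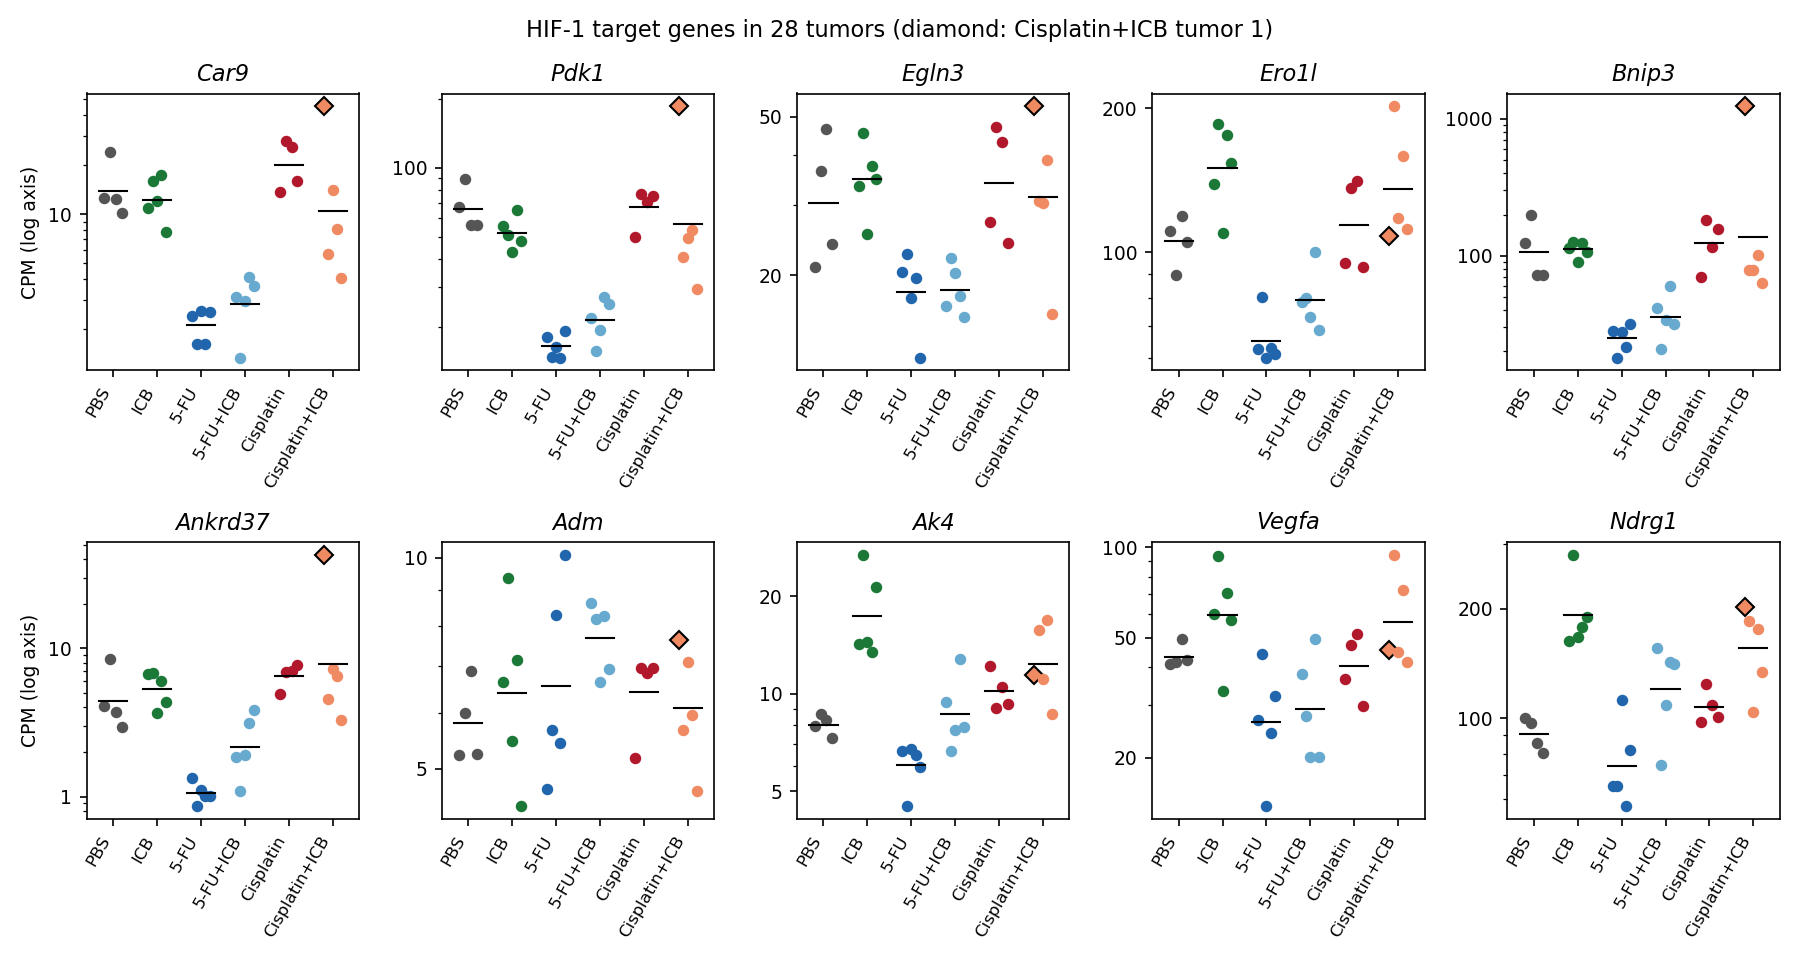
Level of each hypoxia target in CPM (log axis) in all 28 tumors by treatment group. Points are single tumors, horizontal lines are geometric means and the diamond is Cisplatin+ICB tumor 1. Car9, Pdk1, Bnip3 and Ankrd37 are lower in the 5-FU tumors than in every PBS tumor, and the diamond is far above its group for Bnip3 (1241 CPM) and Ankrd37 (42.9 CPM).

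Markers of other cells differed between the same groups. With 5-FU, 5 of 6 T cell markers, 3 of 6 fibroblast markers and 2 of 6 macrophage markers were called higher, and 3 of 6 proliferation markers lower. Summed over the list, fibroblast markers ranged from 785 to 2442 CPM with PBS and from 2544 to 5043 CPM with 5-FU, and mesothelial markers from 273 to 361 and from 46.6 to 178 CPM. In the mesothelial sum, here and below, Msln weighs most, with a median of 155 CPM per total counts over all tumors. The medians of Wt1, Krt8 and Krt19 were 0.566, 1.13 and 0.329 CPM. The mean log2 level of the tested mesothelial markers was 1.23 with PBS, 0.99 with 5-FU and 1.53 with 5-FU+ICB. Skeletal muscle markers, of which 0 of 7 were called, summed to 105 to 184 CPM with PBS, to 9.24 CPM in 5-FU tumor 2 and to 953 to 1576 CPM in the other 4 5-FU tumors. In the tumor with the low muscle level, Car9 (1.62 CPM), Pdk1 (14.7 CPM), Bnip3 (18.01 CPM) and Ankrd37 (0.863 CPM) were as low as in the rest of the group, whereas Egln3 (22.5 CPM), Ero1l (80.5 CPM) and Vegfa (44.1 CPM) were higher than in the rest. Of the 4 mesothelial markers tested, 1 was called higher and 0 lower with 5-FU. Their summed level was 54.4 to 218 CPM with ICB. The part of cell composition in the results was not tested.

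Cisplatin alone was compared with PBS in the same way. EdgeR called 0 of the 10 genes and 0% of the 17819 genes tested, of which 317 had an unadjusted p under 0.05. In the set 0 genes had an unadjusted p under 0.05, and the adjusted p from edgeR was 1 for each. DESeq2 called 0 of 9 genes, since it gave no adjusted p for Bnip3 in any comparison fitted to the cisplatin table, and its counts of calls there leave that gene out. Car9 was at 13.7, 27.9, 25.7 and 15.9 CPM with cisplatin and Pdk1 at 49.8, 76.9, 71.1 and 75.2 CPM, both overlapping PBS (log2 fold changes 0.50, SE 0.57, and 0.02, SE 0.42). Bnip3 was at 70.4, 184, 116 and 157 CPM (0.17, SE 0.77) and Ankrd37 at 4.91, 6.93, 7.04 and 7.73 CPM (0.47, SE 0.62). The other 6 genes had log2 fold changes from -0.07 for Vegfa to 0.36 for Ak4. These standard errors rest in part on Cisplatin+ICB tumor 1, which is in the fit. Without it, a setting chosen after seeing the data, they were 0.33 for Bnip3 (log2 fold change 0.16) and 0.34 for Ankrd37 (0.46), again 0 of the 10 genes and 0 of all genes were called, and the lowest adjusted p of the set was 0.951.

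The chemotherapies were then compared directly, in a fit of all 28 tumors. Car9, Pdk1 and Ankrd37 were lower with 5-FU than with cisplatin, against 0.362% of 18521 genes called. The log2 fold changes were -3.27 for Car9 (SE 0.51, adjusted p = 0.00514), -2.04 for Pdk1 (SE 0.35, adjusted p = 0.0119) and -2.64 for Ankrd37 (SE 0.55, adjusted p = 0.0316). For each of these 3 genes every 5-FU tumor was below every Cisplatin tumor. Bnip3 (-2.37, SE 0.64, adjusted p = 0.0921), Ero1l (-0.83, SE 0.19, adjusted p = 0.0543), Egln3 (-0.94, SE 0.28, adjusted p = 0.114) and Ak4 (-0.76, SE 0.23, adjusted p = 0.116) did not pass, although their groups did not overlap. A fit of these 9 tumors alone called 7 genes (943 over the whole table, against 67) and DESeq2 called 6 (663 over the whole table), whereas leaving out Cisplatin tumor 2 left 0, with Car9 at -3.10 (adjusted p = 0.0512) and Pdk1 at -1.98 (adjusted p = 0.0682). Ankrd37 kept its call in 3 of the 10 fits that left out a tumor. Cisplatin+ICB tumor 1 is in this fit although its group is not compared, and without it, a setting chosen after seeing the data, 7 genes were called (1226 over the whole table). Bnip3 (-2.37, SE 0.31, adjusted p = 0.000123), Ero1l, Egln3 and Ak4 then passed with nearly the same fold changes and smaller errors.

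Markers of other cells differed between these groups as well. Fibroblast markers summed to 2544 to 5043 CPM with 5-FU and to 1292 to 2467 CPM with cisplatin, endothelial markers to 128 to 312 and to 84.2 to 114 CPM, and mesothelial markers to 46.6 to 178 and to 216 to 309 CPM, none of them overlapping. No marker gene was called, and their part in the differences was not tested.

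The next comparison asked what ICB alone did. Ak4, Ndrg1 and Ero1l were higher with ICB than with PBS, by 2.29-fold, 2.19-fold and 1.47-fold, and 0 of the 10 genes were called lower. In this comparison 37.8% of the genes tested were called, so the 3 of 10 are within what all genes showed. Ak4 was at 14.2, 26.9, 14.4, 13.4 and 21.4 CPM with ICB, all above the PBS tumors (log2 fold change 1.19, SE 0.24, adjusted p = 0.00152). Ndrg1 was at 163, 281, 168, 178 and 189 CPM, again with no overlap (1.13, SE 0.25, adjusted p = 0.0023). Ero1l was at 139, 186, 109.7, 176 and 154 CPM and overlapped PBS through ICB tumor 3 (0.56, SE 0.16, adjusted p = 0.00993). In the table of the cisplatin groups, which holds the same 9 tumors, its adjusted p was 0.0747.

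The 4 genes with the largest falls under 5-FU were not called with ICB, and whether the effects of 5-FU and ICB differed was not tested. Car9 was at 10.8, 15.9, 12.04, 17.3 and 7.75 CPM (log2 fold change -0.20, SE 0.33, adjusted p = 0.647) and Bnip3 at 115, 125, 90.5, 125 and 106 CPM (-0.06, SE 0.32, adjusted p = 0.883). Ankrd37 was at 6.75, 6.80, 3.67, 6.00 and 4.38 CPM (0.20, SE 0.37, adjusted p = 0.674). Pdk1, at 55.7, 50.6, 42.7, 65.1 and 47.6 CPM, had a log2 fold change of -0.35 (SE 0.20, adjusted p = 0.156). Vegfa ranged from 33.2 to 93.9 CPM, wider than the PBS range of 40.8 to 49.6 CPM, and was not called (0.57, SE 0.33, adjusted p = 0.171). Egln3 (0.18, SE 0.22, adjusted p = 0.506) and Adm (0.21, SE 0.25, adjusted p = 0.497) overlapped PBS as well. Leukocyte markers moved with ICB as well, 4 of 5 being called higher, with summed levels of 1266 to 3029 CPM against 485 to 653 CPM with PBS. All 6 T cell and 6 macrophage markers, 2 of 5 neutrophil and 2 of 6 endothelial markers were called higher too, and 4 of 6 proliferation markers lower. The part of these markers in the rise of Ak4, Ndrg1 and Ero1l was not tested.

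**Figure D2:**
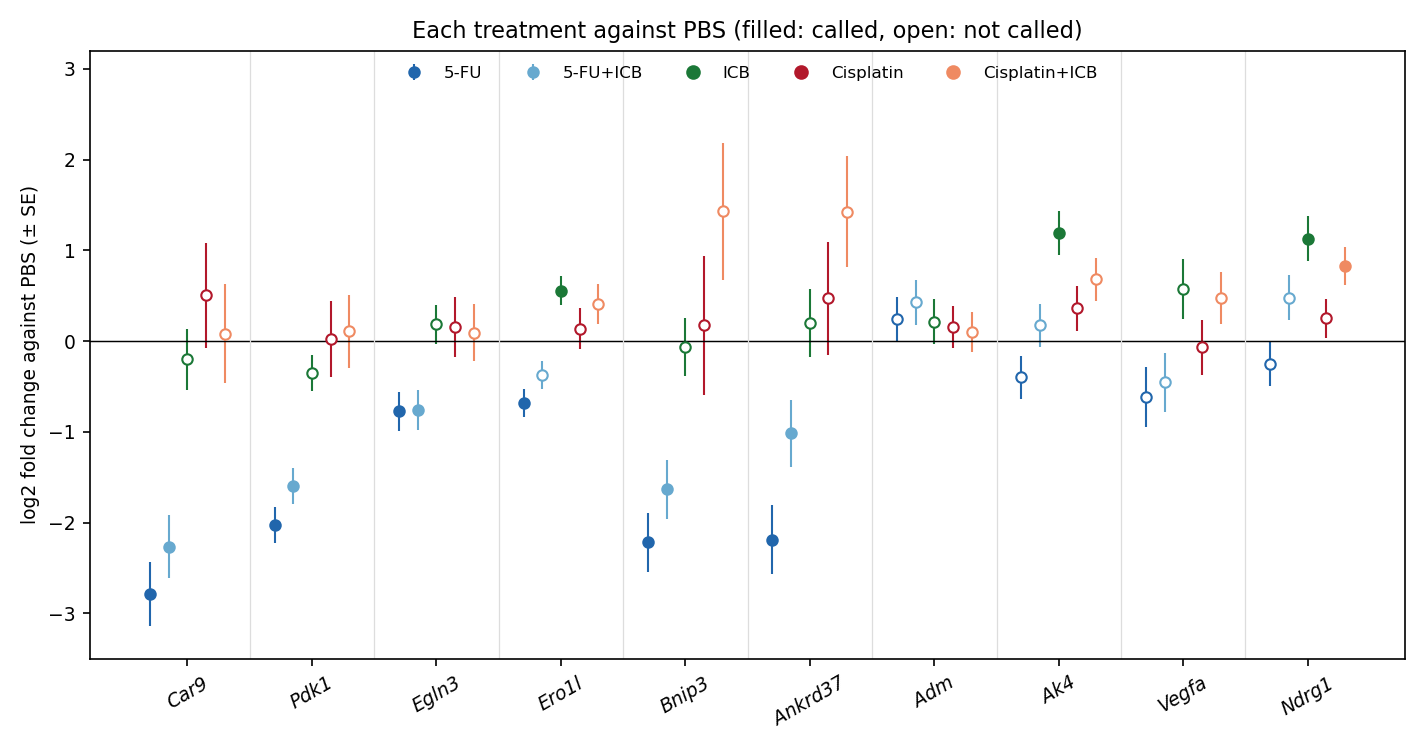
Log2 fold change against PBS with its standard error for each hypoxia target and each treatment, from edgeR. Filled points passed the test and open points did not. The 5-FU and 5-FU+ICB points lie below 0 for Car9, Pdk1, Egln3, Ero1l, Bnip3 and Ankrd37, while the ICB points for Ak4 and Ndrg1 lie above 1.

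In the combination, Car9, Pdk1, Egln3, Bnip3 and Ankrd37 were lower in 5-FU+ICB than in PBS tumors, 5 of 10 genes against 40.7% of all genes tested. These tumors also enter the comparison with ICB from which the set was known, so the values are not independent of the choice of genes. Car9 was at 3.13, 1.33, 2.96, 4.12 and 3.65 CPM (log2 fold change -2.26, SE 0.35, adjusted p = 0.000378) and Pdk1 at 22.0, 15.7, 19.5, 27.2 and 25.3 CPM (-1.60, SE 0.20, adjusted p = 7.43e-05), both below every PBS tumor. Egln3 was at 16.7, 22.1, 20.2, 17.7 and 15.7 CPM. PBS tumor 1 was below the highest of them, so the groups overlapped (-0.76, SE 0.22, adjusted p = 0.0101).

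Bnip3 was at 41.2, 20.7, 34.0, 60.02 and 32.0 CPM, also without overlap (log2 fold change -1.63, SE 0.32, adjusted p = 0.00146). Ankrd37, at 1.86, 1.09, 1.91, 3.12 and 3.85 CPM, overlapped PBS (-1.02, SE 0.37, adjusted p = 0.0344). Its call was lost without PBS tumor 2 (-0.55, adjusted p = 0.219), without 5-FU+ICB tumor 1, 2 or 3 (adjusted p from 0.0602 to 0.0772) and with all 28 tumors in the fit (adjusted p = 0.13), with only these groups (adjusted p = 0.144) or with no filter on low counts (adjusted p = 0.0734). Ero1l (78.5, 80.1, 73.3, 100.0 and 68.7 CPM) was not called (-0.38, SE 0.16, adjusted p = 0.0566). Ak4 and Ndrg1, which were called higher with ICB alone, had log2 fold changes of 0.18 (SE 0.24, adjusted p = 0.562) and 0.48 (SE 0.24, adjusted p = 0.116) in the combination. Vegfa (-0.45, SE 0.33, adjusted p = 0.264) and Adm (0.43, SE 0.25, adjusted p = 0.165) were not called.

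Markers of other cells also differed between 5-FU+ICB and PBS tumors. All 5 leukocyte and 6 T cell markers, 4 of 6 macrophage and 5 of 6 endothelial markers were called higher, and 4 of 6 proliferation markers lower. Of the fibroblast markers 2 of 6 were called higher, with sums of 2724 to 3894 CPM against 785 to 2442 CPM with PBS, and of 4 mesothelial markers tested 2 were called higher and 1 lower, with sums of 37.5 to 169 CPM against 273 to 361 CPM, neither sum overlapping. Leukocyte markers summed to 650 CPM in 5-FU+ICB tumor 2, within the PBS range of 485 to 653 CPM, and to 1986 to 4590 CPM in the other 4. In that tumor Car9, Pdk1, Bnip3 and Ankrd37 were lowest of their group and Egln3 was highest. The part of cell composition in the comparison was not tested.

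The comparison that led to the choice of these genes, 5-FU+ICB against ICB, is described by its values alone. The comparisons of 5-FU+ICB with 5-FU and with Cisplatin+ICB, and those that use the ICB tumors, share tumors with it. The log2 fold changes were -2.06 for Car9, -1.57 for Bnip3, -1.25 for Pdk1, -1.22 for Ankrd37, -1.02 for Vegfa, -1.02 for Ak4, -0.94 for Egln3, -0.93 for Ero1l and -0.65 for Ndrg1, with standard errors from 0.15 to 0.36. Adm was at 0.22 (SE 0.23). The median was -1.02, against 0.02 over all genes tested, and 7 of the 10 genes did not overlap between these groups, where 2.33% of all genes did not. For Ak4 the closest tumors had 12.8 and 13.4 CPM. For Ankrd37, Adm and Vegfa the groups overlapped. Marker lists of other cells differed between these groups too, and are likewise given without a test. All 5 neutrophil and all 5 erythroid markers had negative log2 fold changes (medians -1.39 and -1.69), as did all 6 macrophage markers (-0.32), whereas all 6 fibroblast (0.79), 6 T cell (0.91) and 6 endothelial markers (0.68) had positive ones. Summed neutrophil markers ranged from 8.31 to 72.4 CPM with 5-FU+ICB and from 59.5 to 166 CPM with ICB, so these groups overlapped.

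Adding ICB to 5-FU was tested against 5-FU alone. EdgeR called 0 of the 10 genes, where 0.0112% of all genes were called, although 4 of the 10 had an unadjusted p under 0.05, against 16.6% of all genes, and all 10 log2 fold changes were positive, from 0.01 for Egln3 to 1.17 for Ankrd37. DESeq2 called 1, Ankrd37 (1.16, adjusted p = 0.0498). The largest differences were those of Ankrd37 (SE 0.36, adjusted p = 0.159) and of Ndrg1, which was at 156, 74.5, 109, 143 and 141 CPM with the combination (0.73, SE 0.23, adjusted p = 0.16). Without 5-FU+ICB tumor 2 both were called (1.36, adjusted p = 0.0267, and 0.87, adjusted p = 0.0244), and without 5-FU tumor 3 Ndrg1 was called (0.91, adjusted p = 0.0439). Over the whole table, 1948 genes were called without 5-FU+ICB tumor 2, 640 without 5-FU tumor 3 and 539 with DESeq2, against 2 with all tumors in edgeR. All 5 leukocyte (median 1.09), 6 T cell (2.06), 6 macrophage (0.45) and 6 endothelial markers (0.76) also had positive log2 fold changes. All 6 proliferation (-0.27) and 5 of 6 fibroblast markers (-0.33) had negative ones. Of these markers 0 were called, and their part in the comparison was not tested.

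Bnip3, Ankrd37, Pdk1 and Car9 were far above their group in Cisplatin+ICB tumor 1. In the 5 tumors of this group, Bnip3 was at 1241, 78.9, 78.4, 101 and 63.2 CPM, Ankrd37 at 42.9, 4.53, 7.22, 6.50 and 3.31 CPM, Pdk1 at 187, 40.6, 49.1, 53.7 and 29.4 CPM, and Car9 at 45.5, 5.71, 14.1, 8.17 and 4.06 CPM. For all 4 genes tumor 1 had the highest level of the 28 tumors, as it did for Egln3 (53.1 CPM). For Egln3 that rank rests on the scaling of the libraries. Its estimated counts were 1002 of 27570127 in that tumor and 1594 of 33950805 in ICB tumor 2. Ero1l was lowest of its group there (108 CPM, against 112 to 202 CPM in the others), and Vegfa (45.6 CPM) was within the range of the others (41.6 to 94.6 CPM). Several marker lists stood apart in the same tumor. Summed mesothelial markers were at 665 CPM against 133 to 267 CPM in the others of its group, and erythroid markers at 755 against 43.8 to 209 CPM. Fibroblast markers were lower, at 599 against 1676 to 2199 CPM, as were endothelial (54.0 against 101 to 162 CPM), skeletal muscle (71.9 against 226 to 974 CPM) and T cell markers (21.4 against 44.7 to 338 CPM). The part of these in its levels was not tested.

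With that tumor included, Ndrg1 was called higher in Cisplatin+ICB than in PBS tumors, 1 gene of 10 against 6.1% of all genes. It was at 202, 184, 104, 176 and 134 CPM, above every PBS tumor (log2 fold change 0.83, SE 0.21, adjusted p = 0.0296). The call was lost without Cisplatin+ICB tumor 2 or 4 or without PBS tumor 1, 3 or 4 (adjusted p from 0.0723 to 0.0961). Without Cisplatin+ICB tumor 1, 4 genes were called: Ndrg1, Ak4 (0.78, adjusted p = 0.0212) and Ero1l (0.56, adjusted p = 0.0391) higher, and Pdk1 lower (-0.58, adjusted p = 0.0429), where it had been at 0.11 (SE 0.40) with all tumors. In that fit 6277 genes of the whole table were called, against 1087 with all tumors, so the rise from 1 to 4 genes is read against a similar rise over all genes. With all tumors, 5 of 6 T cell, 4 of 5 neutrophil and 3 of 5 leukocyte markers were called higher in Cisplatin+ICB than in PBS tumors. Neutrophil markers summed to 35.2 to 107 CPM against 9.32 to 18.5 CPM, without overlap. The part of these markers in the comparison was not tested.

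Against cisplatin alone, edgeR called 0 of the 10 genes in Cisplatin+ICB, where 0% of all genes were called. DESeq2 also called 0 of the set, but 783 genes over the whole table. Ndrg1 was the 1 gene with an unadjusted p under 0.05 (0.58, SE 0.21, adjusted p = 0.195), where 14.2% of all genes had one. Without Cisplatin+ICB tumor 1, Car9 was called lower than with cisplatin alone (-1.32, SE 0.38, adjusted p = 0.0354), against -0.42 (SE 0.54) with it. That fit called 2114 genes of the whole table, where 0 were called with all tumors. Against ICB, 0 of the genes were called by edgeR, where 0% of all genes were, 2 had an unadjusted p under 0.05, Ankrd37 and Ak4, against 15.9% of all genes, and DESeq2 called 0 of the set and 52 genes over the whole table. The value of Ankrd37 holds Cisplatin+ICB tumor 1 at 42.9 CPM. The others of that group had 3.31 to 7.22 CPM, and the ICB tumors 3.67 to 6.80 CPM. Whichever tumor was left out, edgeR called 0 genes of the set and of the whole table.

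Whether ICB added to cisplatin acted beyond the sum of both was tested by an interaction. EdgeR called 0 of the 10 genes and 0% of all genes, DESeq2 called 0, and Ak4 was the 1 gene with an unadjusted p under 0.05 (log2 interaction -0.86, SE 0.33, adjusted p = 0.564). The effect of adding ICB to 5-FU was also set against that of adding it to cisplatin, with 0 genes called by either tool, 0% of all genes called by edgeR and 0 of the 10 genes with an unadjusted p under 0.05. In both of these tests edgeR called 0 genes of the set and of the whole table, whichever tumor was left out. The combinations were then compared with each other. Car9 (-2.35, SE 0.48, adjusted p = 0.0348), Pdk1 (-1.71, SE 0.33, adjusted p = 0.0318), Bnip3 (-3.06, SE 0.64, adjusted p = 0.0349) and Ankrd37 (-2.44, SE 0.52, adjusted p = 0.0384) were lower in 5-FU+ICB than in Cisplatin+ICB tumors, against 0.297% of all genes. A fit of these 10 tumors alone called 0 of the genes and 0 over the whole table. Between the same groups all 5 neutrophil (median -1.69, 1 called) and 5 erythroid markers (-2.91) had negative log2 fold changes and all 6 endothelial markers (1.45) positive ones. Fibroblast markers summed to 2724 to 3894 against 599 to 2199 CPM and endothelial markers to 165 to 658 against 54.0 to 162 CPM, neither overlapping, and the part of these in the differences was not tested. Without Cisplatin+ICB tumor 1 these differences shrank to -1.40, -0.98, -1.10 and -1.19, and Pdk1 was the 1 gene still called (adjusted p = 0.049). Without 5-FU+ICB tumor 1 or 5, 0 genes were called, 1 without 5-FU+ICB tumor 3 and 2 without Cisplatin+ICB tumor 3. Without Cisplatin+ICB tumor 5, 7 were called, as with DESeq2, where 1128 and 1620 genes of the whole table were called, against 55. Over the fits that left out a tumor, the calls in the whole table ranged from 1 to 2146, so these counts are read against a background that moved widely.

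The counts of Bnip3 carry a limit of their own. Of the 31-base stretches in its transcripts, 57% also occurred in transcripts of other genes, most of them in AC160336.1, a long noncoding RNA on chromosome 14 to which between 3001 and 25828 counts were assigned in the tumors. The authors' tool divides such reads between genes by an estimate. The counts of AC160336.1 ranged from 5204 to 7368 with PBS and from 7470 to 14892 with 5-FU, and those of Bnip3 from 1991 to 5865 and from 501 to 1027. The effect of this division on Bnip3 was not tested. The share was 21.4% for Ankrd37, most of it with Lrp2bp, whose exons overlap it on the other strand, 11.6% for Ak4, through the pseudogene Ak3l2-ps, which had 0 counts in all tumors, and 7.41% or less for the other 7 genes. Car9, Bnip3, Ankrd37 and Ndrg1 share exon bases with a gene on the other strand, and whether strand was used in the counting is not given in the sources used here.

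Variation among tumors of the same treatment was also compared between the genes. After the group means were removed, the log2 CPM of Car9, Pdk1, Bnip3 and Ankrd37 varied together, and so did those of Ero1l and Vegfa. Of 45 pairs of genes, 8 had a Pearson correlation with an adjusted permutation p under 0.05 over the 28 tumors. All 6 pairs within the first 4 genes were among them, with r from 0.85 to 0.95. Pdk1 and Bnip3 had r = 0.95 and rho = 0.88 (permutation p = 1e-05 for each, the smallest that 100000 permutations within groups can give, adjusted p = 0.000112 and 0.00015). Ero1l and Vegfa had r = 0.84 and rho = 0.84 (permutation p = 1e-05 for each, adjusted p = 0.000112 and 0.00015).

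The first correlations rested in part on Cisplatin+ICB tumor 1. Without it, r fell to between 0.69 and 0.87 for the 6 pairs of Car9, Pdk1, Bnip3 and Ankrd37, and it was 0.84 for Ero1l and Vegfa. Without the 2 tumors farthest from the median of the first gene, r was 0.84 for Pdk1 and Bnip3 and 0.87 for Ero1l and Vegfa. Between the genes of these groups r ranged from -0.19 to 0.02, and from 0.05 to 0.25 without that tumor. Car9 and Adm made the eighth pair (r = 0.51, rho = 0.56, permutation p = 0.00214 and 0.00309, adjusted p = 0.012 and 0.0154, r = 0.56 without the 2 farthest tumors). By Spearman's rho, Bnip3 with Ndrg1 (rho = 0.53) and Ak4 with Ndrg1 (rho = 0.61) also passed the permutation test (adjusted p = 0.0102 and 0.0211). By Pearson's r the adjusted p of each was 0.0512.

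**Figure D3:**
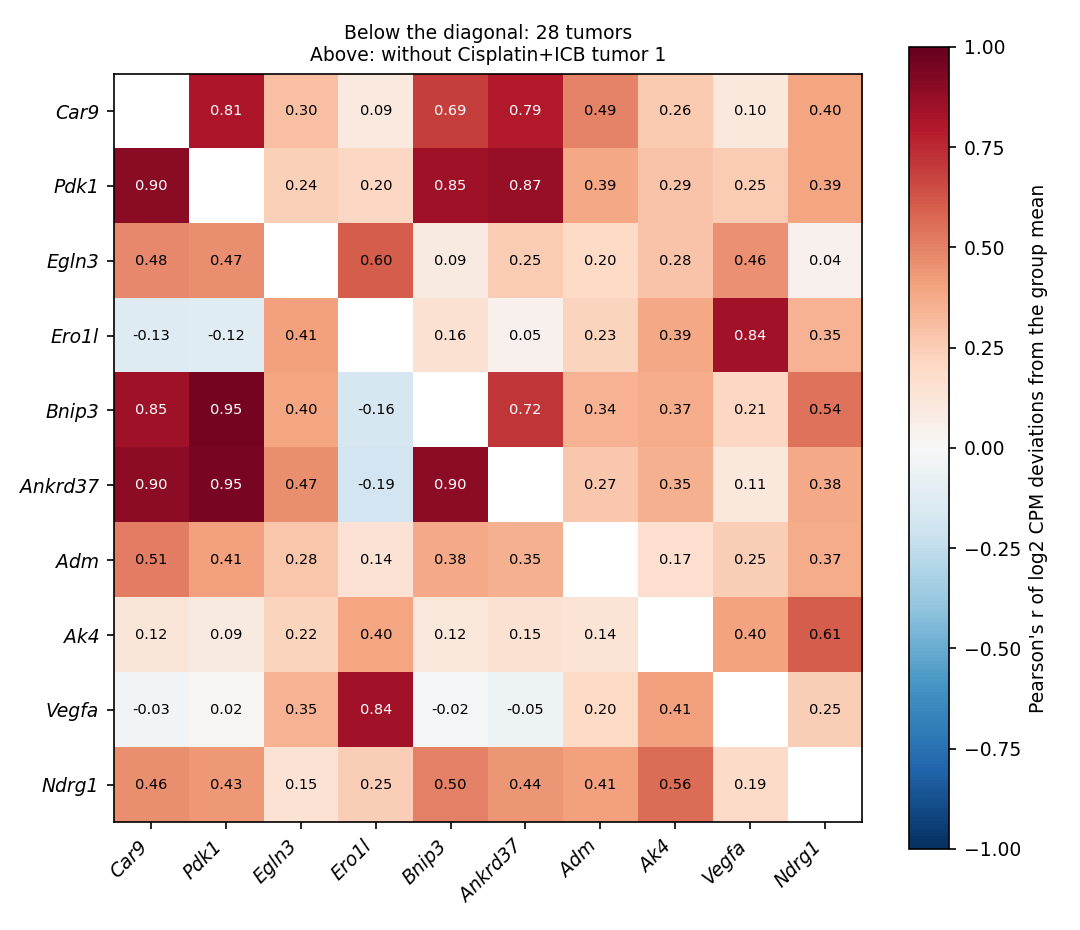
Pearson's r between hypoxia targets across tumors, computed on log2 CPM after subtracting the group mean, for 28 tumors below the diagonal and for 27 without Cisplatin+ICB tumor 1 above it. Car9, Pdk1, Bnip3 and Ankrd37 form a block of high values (0.85 to 0.95, and 0.69 to 0.87 above the diagonal), and Ero1l with Vegfa (0.84) stands apart from it.

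The genes outside the set whose pattern was most like the mean of the 10, by the same within-group correlation over 28 tumors, were Angptl6 (r = 0.849), Rab24 (0.849), Fam162a (0.848), Hemk1 (0.844), Azin2 (0.843), Taz (0.83), Slx1b (0.822), Fbxl12 (0.816), Unc13a (0.815) and Pip4p1 (0.805). These values are descriptions with no test, and the tumors share their libraries and depth between the genes. Without Cisplatin+ICB tumor 1, 6 of them stayed among the first 10, namely Unc13a (0.788), Fam162a (0.741), Angptl6 (0.717), Rab24 (0.689), Taz (0.685) and Azin2 (0.683). Among them Fam162a, a mitochondrial protein, is itself a listed target of HIF-1. Of the marker lists, fibroblast markers had the correlation with the mean of the 10 that was largest in size (r = -0.591). Without Cisplatin+ICB tumor 1 it was -0.277, and that of neutrophil markers, at 0.313, was the largest. The part of cell composition in the correlations was not tested.

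Further genes of the pathway were described from lists chosen with results of these data known. Of 28 other HIF-1 targets, 6 were called lower and 5 higher with 5-FU against PBS, where 23% of all genes were called, and the median log2 fold change was -0.05, against -0.01 over all genes tested. Lower were Ddit4, an inhibitor of mTORC1 (-1.51, adjusted p = 0.00565), Fam162a (-1.25, adjusted p = 0.00048), the lipid droplet protein Hilpda (-1.19, adjusted p = 0.00398), Bnip3l, Higd1a and Kdm3a. Among the higher were Pfkfb3, which makes the activator of phosphofructokinase (1.64, adjusted p = 0.0137), and the collagen-modifying enzymes Loxl2 (1.59, adjusted p = 0.0189), Lox and P4ha2.

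Most glycolytic genes were lower with 5-FU. Of 16 enzymes and transporters, 11 were called lower with 5-FU than with PBS, where 23% of all genes were called in either direction, and the median was -0.84. The falls ranged from -0.54 for Gpi1 to -2.47 for Aldoc (adjusted p = 0.00115), an aldolase, and Pgk1, phosphoglycerate kinase, was at -1.33 (adjusted p = 0.000534). Hexokinase Hk2 was called higher (1.02, adjusted p = 0.0362). With ICB against PBS, 4 were called higher and 0 lower, Hk2 (2.03), Pfkp (1.31), the glucose transporter Slc2a1 (1.29) and Hk1 (0.86), and with 5-FU+ICB against PBS 6 were lower and 3 higher. These 4 of 16 are below the 37.8% of all genes called with ICB, and the 9 of 16 are set against 40.7% with 5-FU+ICB. Of the 28 other HIF-1 targets, 10 were higher and 1 lower with ICB, close to the share over all genes, led by Pfkfb3 (3.26, adjusted p = 0.000209) and the lactate transporter Slc16a3 (2.72, adjusted p = 0.000152). In 5-FU+ICB against PBS, where 40.7% of all genes were called, 10 of the 28 were higher and 6 lower, and Ppp1r3c, which targets a phosphatase to glycogen, had the largest rise (4.34, SE 1.40, adjusted p = 0.0186). Skeletal muscle markers summed to between 2.98 and 5253 CPM in the 5-FU+ICB tumors, and their part in that rise was not tested.

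**Figure D4:**
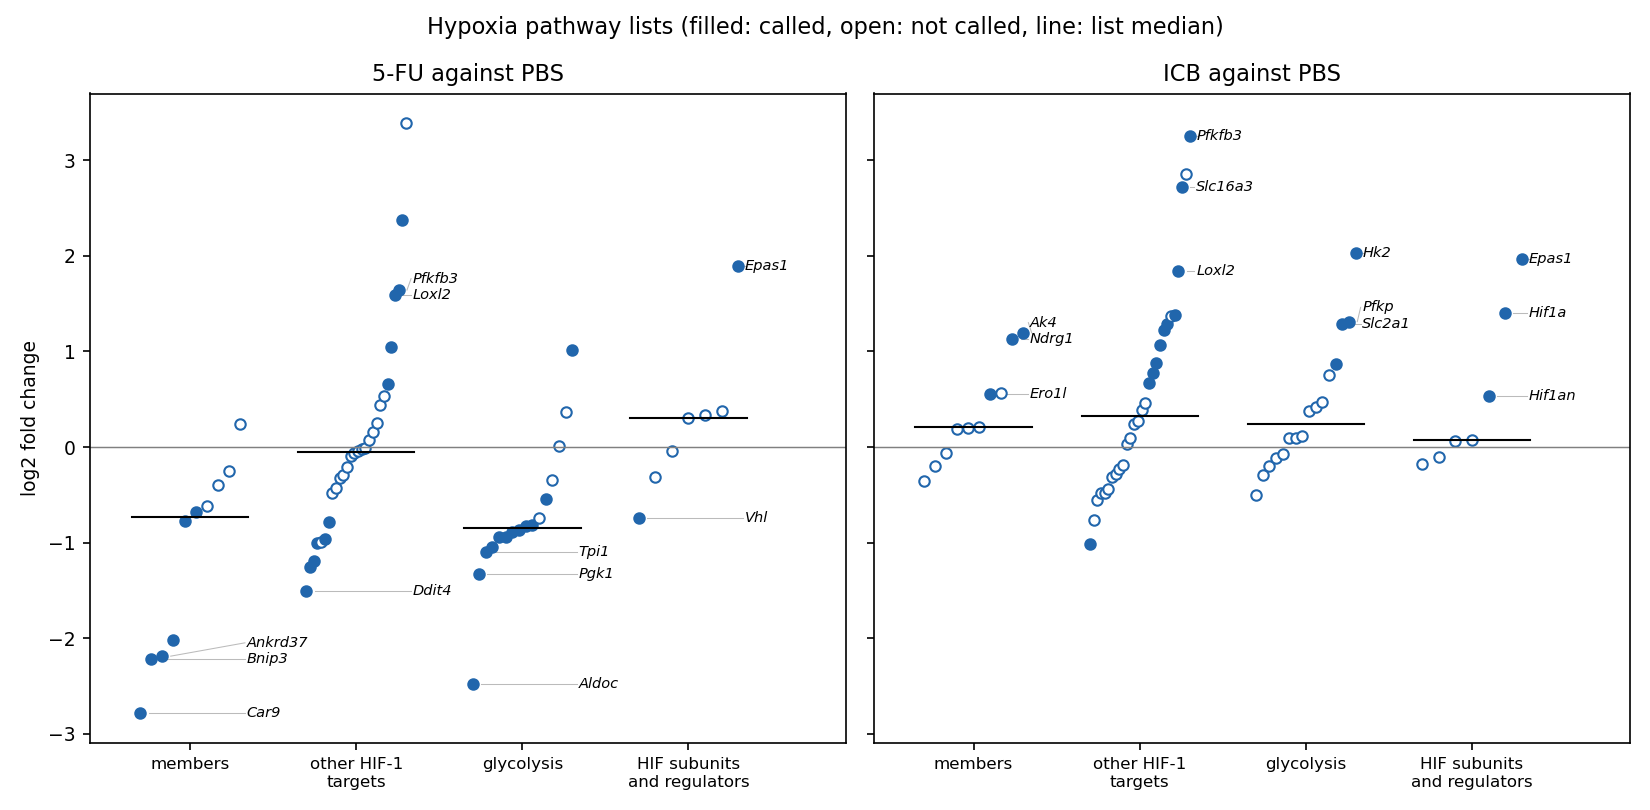
Log2 fold changes of the 10 hypoxia targets (members), 28 other HIF-1 targets, 16 glycolysis genes and 7 HIF subunits and regulators, in 5-FU against PBS (left) and ICB against PBS (right), from edgeR. Each point is 1 gene, filled where called, and lines are list medians, with up to 3 called genes named per list. With 5-FU the members and glycolysis lie mostly below 0 (medians -0.73 and -0.84), while the other targets spread to both sides.

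The regulators of the pathway were read at the mRNA level alone. Of 7 tested, Vhl was called lower with 5-FU than with PBS (-0.74, SE 0.24, adjusted p = 0.0325) and Epas1, which encodes HIF-2 alpha, higher (1.90, SE 0.49, adjusted p = 0.0123), 2 of 7 where 23% of all genes were called. With ICB and with 5-FU+ICB 3 of the 7 were called higher and 0 lower, where 37.8% and 40.7% of all genes were called, so in none of these comparisons did the list stand far from all genes. Hif1a was at 0.38 (SE 0.20, adjusted p = 0.165) with 5-FU and was called higher with ICB (1.40, SE 0.21, adjusted p = 0.000269) and with 5-FU+ICB (1.12, SE 0.21, adjusted p = 0.00101). Of 6 receptors of Vegfa and Adm, 3 were called higher with ICB and 4 with 5-FU+ICB against PBS, among them Flt1 (1.47 and 1.55) and Ramp3 (2.10 and 1.93). Against the same shares of all genes, a count of 3 or 4 among 6 is read as no result about the receptors. The part of the endothelial markers, higher with 5-FU+ICB for 5 of 6 genes, was not tested.

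Relatives of the genes were tested as well. Of 13 relatives tested, Car2 was the 1 called with 5-FU (-1.01, SE 0.20, adjusted p = 0.00441), where 23% of all genes were called, and the median was 0.11. With ICB 4 of the 13 were called higher and 0 lower, and with 5-FU+ICB 5 higher and 1 lower, against 37.8% and 40.7% of all genes. Pdk4, another pyruvate dehydrogenase kinase, was called higher with 5-FU+ICB against PBS, with a wide error (3.45, SE 1.27, adjusted p = 0.0351). In the 5-FU+ICB tumors skeletal muscle markers summed to 2.98 to 5253 CPM, against 105 to 184 CPM with PBS, and adipocyte markers to 23.4 to 380 CPM, against 34.4 to 60.1 CPM, and their part in this value was not tested. Car4, a membrane carbonic anhydrase, rose with ICB (2.66, adjusted p = 0.00158), 5-FU+ICB (2.82, adjusted p = 0.00134) and Cisplatin+ICB (2.36, adjusted p = 0.0302), while Car9 was not called higher in any of these comparisons.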

How the data were processed

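RNA from 28 whole tumors was sequenced as 100-base single reads. Per the submitters' processing notes, bcl2fastq 2.20.0.422 and kallisto 0.46.0 were used with GRCm38, and the study's methods add tximport and the removal of transcripts with low counts. The authors deposited estimated counts per gene in a table with the 5-FU groups and a table with the cisplatin groups, which share the same 9 PBS and ICB tumors. Of the values, 23.4% and 23.8% were not whole and all were rounded. Whether strand was used is not given in the sources used here. The division of reads between genes with shared sequence is an estimate, which bears on Bnip3.

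Counts were tested with edgeR 4.0.16 (R 4.3.3, limma 3.58.1) by its quasi-likelihood test, with TMM scaling, its default filter on low counts, and Benjamini-Hochberg adjustment over all genes tested (17916, 17819 and, with both tables joined, 18521). A gene was called at an adjusted p under 0.05 and a log2 fold change over 0.5 in size. The study's methods name DESeq2, which was run here as an alternative (DESeq2 1.42.0). Log2 CPM used a prior count of 2. Correlations used deviations from group means and 100000 permutations within groups. The script was tested on simulated data. The other alternatives were size factors for scaling, other filters, the groups in the fit, no fold change threshold, replicate numbers as a block and each tumor left out.

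The members and gene lists were chosen with earlier results of these data known. Named were all 10 members, up to 3 called genes per pathway list with the largest fold change, the 10 genes most like the members, and genes of short counts. Further list genes were named after their values were seen. For 1 listed gene, the values are not reported here.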

Additional observations from a re-analysis of the deposited data

Results flagged for a closer look

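In 60 sets of tumors (10 genes in 6 groups), 5 held a tumor that stood far from the rest of its group by Dixon's test, which chance gives in about 1 of 20 groups. Bnip3 was at 1241 CPM in Cisplatin+ICB tumor 1, against 63.2 to 101 CPM in the other 4. Ero1l was at 80.5 CPM in 5-FU tumor 2, against 60.1 to 63.1 CPM. Ndrg1 was at 281 CPM in ICB tumor 2, against 163 to 189 CPM. Vegfa was at 49.6 CPM in PBS tumor 3, against 40.8 to 42.1 CPM. Adm was at 5.19 CPM in Cisplatin tumor 1, against 6.84 to 6.97 CPM. The cause of these values was not tested.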

How the results depend on the processing

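Counts of hypoxia targets called moved most between the chemotherapies, and the cause was not tested. For 5-FU against Cisplatin, DESeq2 called 6 and a fit of these groups alone 7, against 3, and leaving out a tumor gave 0 to 7, the 7 without Cisplatin+ICB tumor 1. For 5-FU+ICB against Cisplatin+ICB the values were 7 and 0, against 4, with 0 to 7 on leaving out a tumor. For Cisplatin+ICB against PBS they were 2 (with no adjusted p for Bnip3) and 0, against 1, with 0 to 4. Over all genes, leaving out a tumor there gave 0 to 6277 calls, against 1087, so these moves are not read as results about the set. DESeq2 called 1 gene in 5-FU+ICB against 5-FU, against 0, with 0 to 2, and Cisplatin+ICB against Cisplatin gave 0 to 1. Pdk1 in Cisplatin+ICB against PBS turned from 0.11 to -0.58 without Cisplatin+ICB tumor 1. Of 45 correlations, 8 passed, 13 with size factors for scaling, and 11 without that tumor, a setting chosen after seeing the data. With the replicate block, 0 genes were called in Cisplatin+ICB against PBS and 0 in 5-FU+ICB against Cisplatin+ICB, and Ankrd37 was not called in 5-FU+ICB against PBS (-1.02, adjusted p = 0.0719) or in 5-FU against Cisplatin (-2.67, adjusted p = 0.0731). Same-numbered tumors had a median r of -0.0186 between their deviations, with r over 0.1 in 21 of 66 pairs. For different numbers the median was 0.00719, with r over 0.1 in 89 of 260 pairs. These values show no sign of pairing by number but cannot exclude a pairing or a batch. Leaving out a tumor gave 5 to 6 genes for 5-FU against PBS, 3 for ICB against PBS, 4 to 5 for 5-FU+ICB against PBS, and a median from -1.25 to -0.84 for 5-FU+ICB against ICB. Over all genes, 5-FU against PBS gave 1436 to 4741 calls, against 4115. Of the single-gene values of called genes, 168 kept direction and call and 37 lost the call on leaving out a tumor, and 154 and 18 did so in the other settings. Genes that were not called gained a call in 17 and 14 values, and 1 more reversed. For 5-FU+ICB against ICB, which has no test, all 100 values without a tumor and 50 in other settings moved by less than their standard error. The counts limit Ankrd37 most, with a minimum of 24 reads.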
